A study of Mus musculus with 16 samples.

Results

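The carboxylesterases described here are the 10 mouse genes Ces1d, Ces1e, Ces1f, Ces1g, Ces2a, Ces2b, Ces2c, Ces2e, Ces2g and Ces3a, chosen by symbol from the 21965 genes of a table of RNA-seq counts. The table holds 19 carboxylesterase genes in all. A filter on low counts kept 13811 genes, and 9 of the 10 members were among them. Ces3a was not. The RNA came from the terminal ileum of 16 male mice, with 1 library per mouse. Pair-fed (PF) mice were 4 WT and 4 fat-1 animals, and EtOH-fed mice were 3 WT and 5 fat-1 animals. WT mice were C57BL/6, and fat-1 mice were their littermates that carried, in the heterozygous state, the n3 fatty acid desaturase gene of the worm C. elegans, expressed in all tissues. All were 8 to 10 weeks old when they were put on a liquid diet, and tissue was taken at the end of the feeding. For EtOH mice it held ethanol, raised stepwise to 6% (v/v) for the final 3 weeks, and for PF mice the same calories as maltose dextrin. The segments held the whole gut wall, and the transgene itself was not analysed here.

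Carboxylesterases are enzymes of the endoplasmic reticulum that split carboxylic esters into an acid and an alcohol. Their substrates include ester drugs and prodrugs, pyrethroid insecticides, and lipids such as triglycerides, diglycerides and cholesteryl esters. In the absorptive cells of the small intestine the Ces2 family is the main one, and it takes part in first-pass drug metabolism and in the handling of absorbed fat. The Ces1 family is best known from liver and adipose tissue. Mice carry many near copies of these genes side by side, where humans have few.

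The 10 members lie on chromosome 8 (GRCm38), in 2 clusters. The first spans 515617 bases from 93020214 to 93535830, holds 9 carboxylesterase genes, and includes Ces1d, Ces1e, Ces1f and Ces1g, all on the minus strand. The second spans 416107 bases from 104734003 to 105150109, holds 11 such genes, and includes the other members, all on the plus strand. The upstream sequences of 6 members, as RefSeq gives them for GRCm38.p6, are shown because neighbouring genes of one cluster gave different results with EtOH: of the genes printed, Ces2e and Ces2g were called lower and Ces1g higher in fat-1 mice, and Ces2a, Ces2c and Ces1e were not called. This contrast depended on the mice. Without 3 EtOH mice described below, Ces1g was not called, and Ces2c and Ces1e were called lower. Each sequence ends before the start of the gene as RefSeq and GENCODE give it, and capitals mark runs of 10 or more bases that are also found, on the same strand, in the window of another of these 6 members.
Ces2a, chr8:104733753-104734002 (+ strand): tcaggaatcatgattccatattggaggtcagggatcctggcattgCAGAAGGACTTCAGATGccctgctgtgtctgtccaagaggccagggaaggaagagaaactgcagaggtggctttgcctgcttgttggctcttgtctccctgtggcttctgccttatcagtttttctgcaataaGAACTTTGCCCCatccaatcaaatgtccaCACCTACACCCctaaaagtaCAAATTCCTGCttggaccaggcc
Ces2e, chr8:104926010-104926259 (+ strand): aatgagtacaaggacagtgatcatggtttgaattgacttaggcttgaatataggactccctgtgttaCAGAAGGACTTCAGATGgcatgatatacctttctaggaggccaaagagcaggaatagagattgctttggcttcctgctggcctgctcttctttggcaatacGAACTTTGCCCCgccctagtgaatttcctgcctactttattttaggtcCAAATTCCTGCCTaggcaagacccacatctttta
Ces2c, chr8:104846818-104847067 (+ strand): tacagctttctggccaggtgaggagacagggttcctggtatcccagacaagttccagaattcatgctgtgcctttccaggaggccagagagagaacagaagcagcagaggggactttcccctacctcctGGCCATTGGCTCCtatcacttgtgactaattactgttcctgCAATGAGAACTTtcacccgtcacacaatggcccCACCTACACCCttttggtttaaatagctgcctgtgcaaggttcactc
Ces2g, chr8:104961468-104961717 (+ strand): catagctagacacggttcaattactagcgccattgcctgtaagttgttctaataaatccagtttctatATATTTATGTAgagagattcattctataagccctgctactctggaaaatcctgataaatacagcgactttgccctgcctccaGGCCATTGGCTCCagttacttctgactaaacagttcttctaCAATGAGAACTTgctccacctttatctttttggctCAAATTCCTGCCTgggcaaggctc
Ces1e, chr8:93229620-93229869 (- strand): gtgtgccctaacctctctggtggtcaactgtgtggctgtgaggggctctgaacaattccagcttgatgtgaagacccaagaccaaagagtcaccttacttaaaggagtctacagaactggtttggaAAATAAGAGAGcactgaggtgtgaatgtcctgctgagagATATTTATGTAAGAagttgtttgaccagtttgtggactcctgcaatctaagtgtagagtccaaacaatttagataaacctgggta
Ces1g, chr8:93337309-93337459 (- strand): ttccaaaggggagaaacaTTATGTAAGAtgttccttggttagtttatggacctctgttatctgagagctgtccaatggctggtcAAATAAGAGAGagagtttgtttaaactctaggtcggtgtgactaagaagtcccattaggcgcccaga
Ces1d, Ces1f, Ces2b and Ces3a are named only. The Ces2a and Ces2e windows shared a run of 17 bases, CAGAAGGACTTCAGATG, found in 2 of 32851 mouse promoters. The Ces2c and Ces2g windows shared 13 bases, GGCCATTGGCTCC, found in 2 promoters, and the Ces2e and Ces2g windows 13 bases, CAAATTCCTGCCT, found in 3. Between Ces1e and Ces1g the longest shared run was 11 bases, AAATAAGAGAG, found in 5. Motifs were searched on both strands. The letters of a GATA site, AGATAA, stood once each in the windows of Ces1e and Ces2g (9.99% of promoters of this length) and of Ces1g (6.58% at its length of 151 bases). The CDX letters TTTATNG stood once in the Ces1g window (6.02% of promoters), overlapping no GATA match. The letters searched for HNF1 (GTTAAT), HNF4 (CAAAGTCCA) and a TATA box (TATAAA) were in none of the 6 windows, and were found in 6.43%, 0.384% and 12.4% of promoters of 250 bases. These matches describe letters only.

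Coding sequences were 81.3 to 91.3% identical within the Ces2 members, 74.4 to 81.6% within the Ces1 members and 55.6 to 60.4% between the families (the identity plot). Near copies can share reads. Of the windows of 75 bases, the length of 1 read, in the transcripts of each member, none was shared with another gene for Ces1d, Ces1f and Ces1g. For Ces1e 0.96% were shared, for Ces2e 0.334%, for Ces2g 0.603% and for Ces2b 1.38%. For Ces2c it was 22.1%, with the pseudogene Ces2d-ps for 21.2%, for Ces3a 15.1%, with Ces3b, and for Ces2a 11.4%, with Gm7208. How the counting treated reads that fit several genes is not given in the sources used here, so that the counts of Ces2c, Ces3a and Ces2a are the least certain of the 10. Ces1d also overlaps Gm45909 on its own strand and Ces3a overlaps Gm45724 on the other strand.

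**Figure D1:**
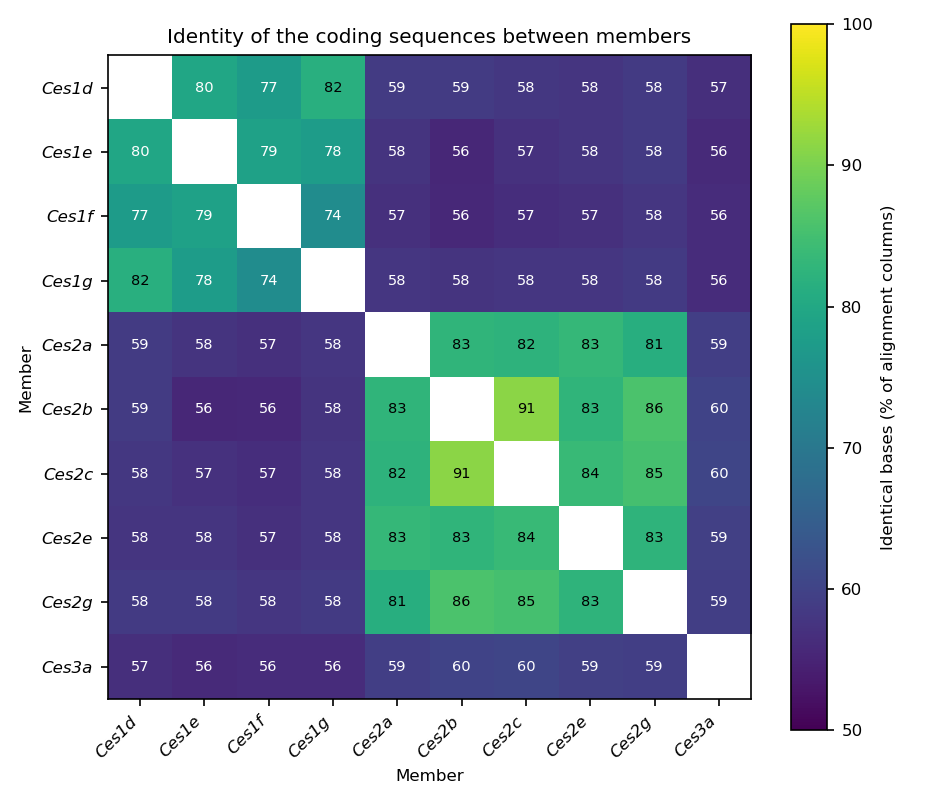
Percent of identical bases in pairwise alignments of the longest coding sequences of the 10 members, with 1 row and 1 column per member. Ces2b and Ces2c form the closest pair, at 91.3%.

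Counted reads numbered 8422645 to 11438539 per library, and 3 reads corresponded to 0.246 to 0.421 CPM (counts per 1e6 reads of the adjusted library size). Library numbers 1 to 8 are PF mice and 9 to 16 EtOH mice, so that library order and diet cannot be told apart. The label ileum was checked against 7 ileal genes, which summed to 3132 to 9521 CPM in 12 of the mice. The sums of the other 4 were lower, at 1103 (replicate 2) and 796 CPM (replicate 4) for the fat-1 PF group, and at 994 (replicate 3) and 1958 CPM (replicate 4) for the fat-1 EtOH group. Among them Fabp6 and Slc10a2, the bile acid binding protein and transporter that define the ileum, stood at 845 to 4906 and 473 to 1382 CPM in those 12. The other genes of the list did not all follow these. Amn, the membrane partner of cubilin, had 149 to 268 CPM in all PF mice, 98.7 to 131 with EtOH in WT and 20.4 to 164 in fat-1 mice. It was called lower in fat-1 mice, but not in the fit without fat-1 PF replicates 2 and 4. Fgf15, the ileal bile acid hormone, had 1.92 to 64.1 CPM among the WT PF mice alone. In fat-1 PF replicates 2 and 4 Fabp6 had 26.1 and 3.31 CPM, and 9 genes of the proximal small intestine summed to 57426 and 60273 CPM, against 2317 to 16854 in the other PF mice and 55 to 743 in all EtOH mice. In fat-1 EtOH replicates 3 and 4 Fabp6 had 118 and 586 CPM. In these mice 8 Paneth cell genes summed to 149.5 and 144 CPM, against 8228 to 31042 in the others. In these and in replicate 2 of the WT EtOH mice, 11 large intestine genes summed to 11936, 12832 and 4770 CPM, against 108 to 466 in the other 13 mice. Car1, the carbonic anhydrase of colonic epithelium, made up most of this, and Hoxb13, Hoxd12 and Hoxd13, which mark the hindgut, were at or near 0 in all mice. The 7 hepatocyte genes summed to 3.4 to 10.7 CPM. Values without the 3 EtOH mice or without the 2 fat-1 PF mice, the latter a choice made once the data had been seen, are given where they change a result. In whole tissue, fewer cells of a type and less RNA per cell cannot be told apart.

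Ces2e carried most of the carboxylesterase mRNA of the ileum. Levels of different genes are compared as CPM per kb of exon. Summed over the 10 members this level was 763 ± 80.4 (SD, n = 4) in WT PF, 984 ± 209 (n = 4) in fat-1 PF mice, and it was 616 ± 131 (n = 3) in WT EtOH mice against 608 ± 83 (n = 5) in fat-1 EtOH mice. Ces2e made up 69.4 ± 4.63% of the sum in WT PF and 67.5 ± 2.32% in fat-1 PF mice, while it made up 59.7 ± 4.76% in WT EtOH mice against 51.3 ± 18.2% in fat-1 EtOH mice. The lowest shares, 31.4 and 31.7%, were those of the 2 fat-1 EtOH mice with high large intestine genes, and the other 3 mice of that group had 61.4 to 67.1%. In WT PF mice the order per kb was Ces2e (530.2 ± 70.8), Ces2c (122 ± 17.3), Ces2a (80.4 ± 24.1), Ces1f (14.4 ± 3.29), Ces1d (8.43 ± 4.73), Ces1e (2.73 ± 0.713), Ces2g (2.51 ± 1.03), Ces2b (1.98 ± 0.647), Ces1g (0.504 ± 0.0182) and Ces3a (0.0414 ± 0.0345). The ranges of Ces1f and Ces1d, of Ces1e and Ces2g, and of Ces2g and Ces2b overlapped, and no other neighbours in this order did. Ces2e, Ces2c and Ces2a were the first 3 in every group. Ces2c and Ces2a overlapped in fat-1 PF and WT EtOH mice and did not in the other groups. The Ces1 family held 3.48 ± 1.21% of the sum in WT PF, 3.58 ± 0.622% in fat-1 PF mice, and with EtOH 7.88 ± 2.65% (WT) and 13.9 ± 9.97% (fat-1). Its highest share was 24.6%, in each of the 2 fat-1 EtOH mice with high large intestine genes.

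**Figure D2:**
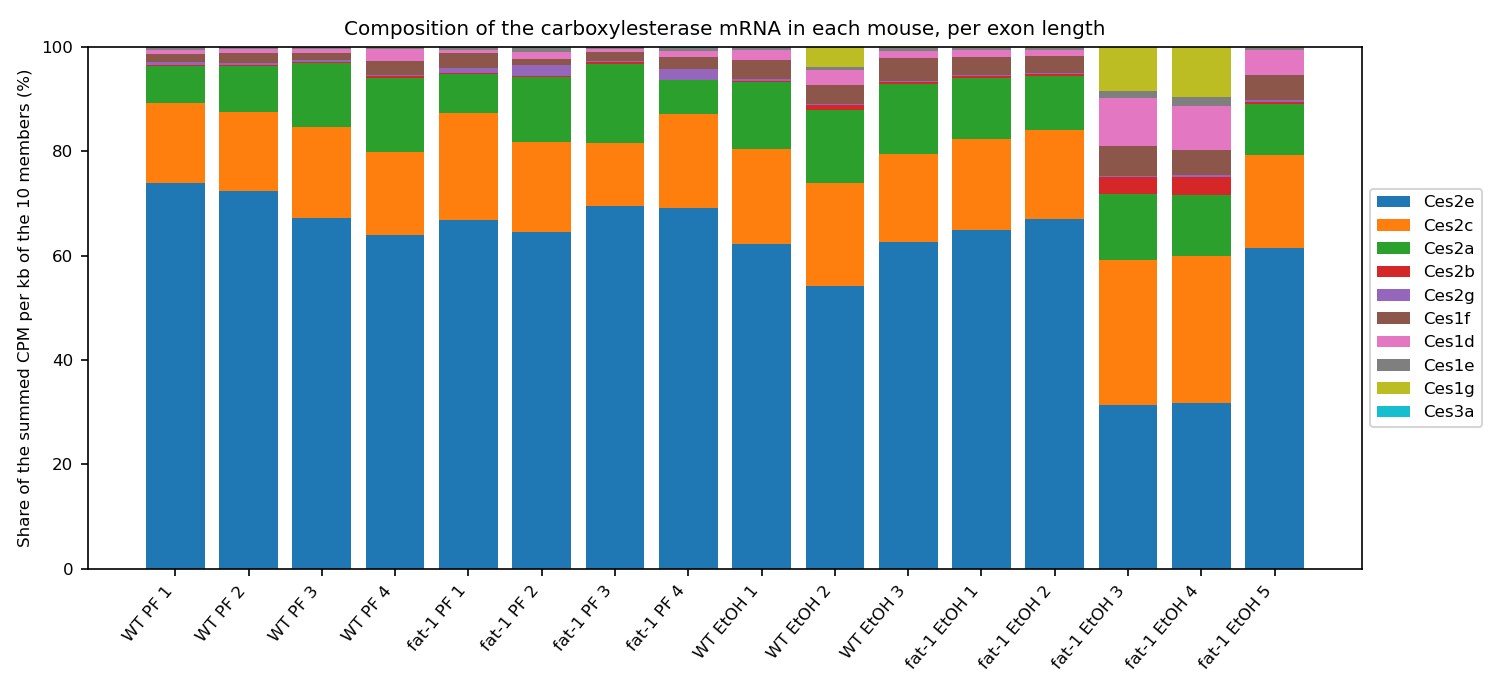
Stacked bars give each member's share (%) of the summed CPM per kb of the 10 members, with 1 bar per mouse. Ces2e takes 54.2 to 74% of the bar in 14 mice and 31.4 and 31.7% in fat-1 EtOH replicates 3 and 4.

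The study asked how EtOH and the fat-1 genotype act on gene expression in the ileum. The test was edgeR's quasi-likelihood test, run over all genes, and a member is called where its Benjamini-Hochberg adjusted p was 0.05 or less. For EtOH against PF in fat-1 mice, 4 of the 9 members tested were called, beside 37.4% of all genes tested. Ces1g and Ces2b were higher (18.7% of all genes were called higher), and Ces2e and Ces2g were lower (18.8% were called lower). The median log2 fold change was -0.12 over the 9 members and 0.05 over all genes. For EtOH against PF in WT mice 0 members were called, beside 0.0796% of all genes (11 genes), and 3 of the 9 members had an unadjusted p under 0.05, as did 14.1% of all genes. DESeq2 called 0 members there, beside 1.77% of all genes, and voom called 2, Ces1f and Ces2e, beside 20.3%. The fit of the compared groups alone also called these 2, beside 8.32%. The median was 0.32 over the members and 0.01 over all genes. Averaged over the genotypes, 4 members were called, beside 35.9% of all genes. Ces1f and Ces1g were higher (18.3% of all genes) and Ces2e and Ces2g lower (17.6%), with a median of 0.10 over the members and 0.04 over all genes. These comparisons share mice and are not independent.

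Without the 3 EtOH mice with high large intestine genes, 4 of the same 9 members were called in the fat-1 comparison, beside 29.7% of all genes, and the 4 were lower. They were Ces1e (-1.40 ± 0.38, SE, on the log2 scale), Ces2c (-0.72 ± 0.18), Ces2e (-0.83 ± 0.18) and Ces2g (-3.07 ± 0.72). Ces3a passed the filter in this fit through fat-1 PF mice in which it was high, so that no call of it is counted. Ces1g and Ces2b were not called, at -0.12 ± 0.53 and -0.05 ± 0.34. Averaged over the genotypes, 4 of the 9 were called without these mice, beside 32.9% of all genes. Ces1f was higher (0.40 ± 0.13), and Ces2c (-0.54 ± 0.14), Ces2e (-0.74 ± 0.14) and Ces2g (-1.84 ± 0.55) were lower, with adjusted p-values between 0.00205 and 0.0351. Without the 2 fat-1 PF mice, Ces2e and Ces2g were called lower in the fat-1 comparison and no other member was, beside 13.9% of all genes. These 2 were also the calls with voom, beside 26.4%, and in the fit of the compared groups alone, beside 23.2%.

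**Figure D3:**
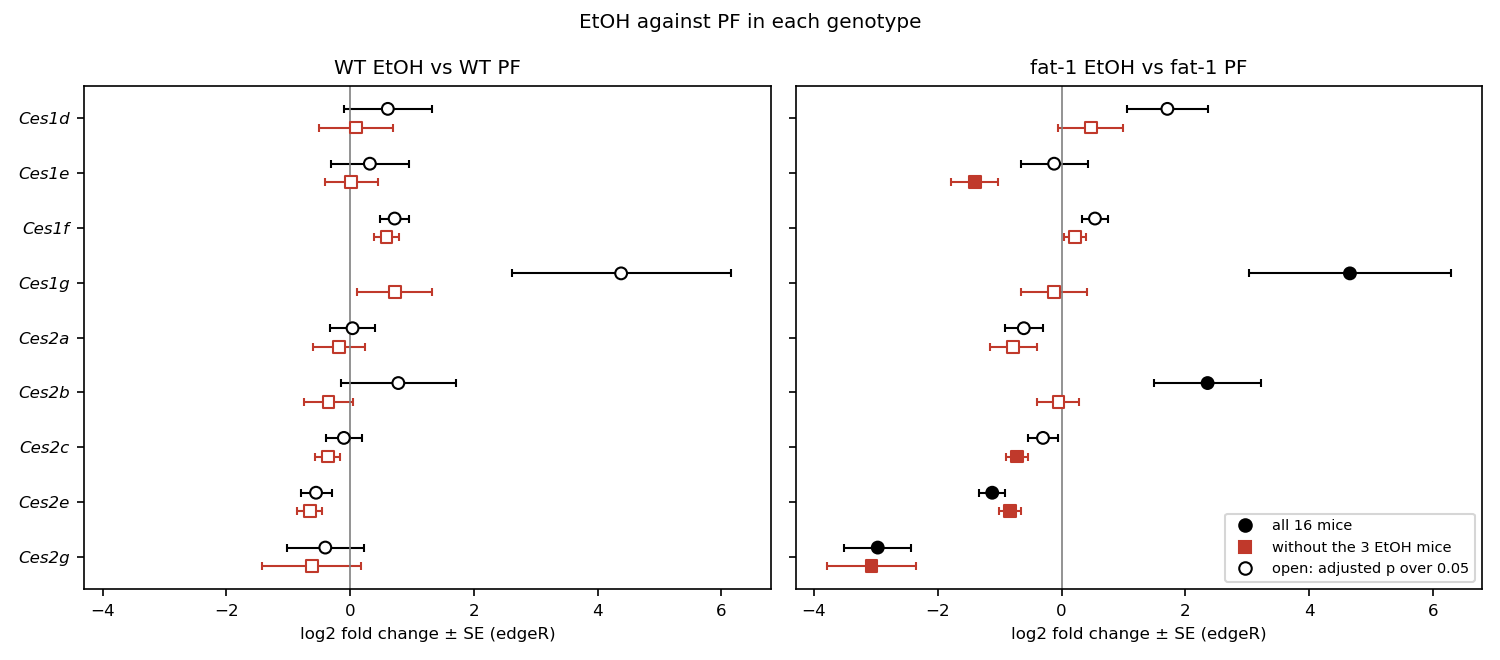
Log2 fold change ± SE (edgeR) of EtOH against PF for the 9 members tested, in WT mice (left) and fat-1 mice (right), with all 16 mice (black circles) and without the 3 EtOH mice with high large intestine genes (red squares). Filled symbols had an adjusted p of 0.05 or less. Ces1g and Ces2b drop from 4.66 and 2.36 to -0.12 and -0.05 in fat-1 mice, while Ces2e and Ces2g stay below 0.

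Ces2e, the abundant intestinal member, fell with EtOH. It stood at 1420, 1613, 1521 and 1170 CPM in WT PF mice and at 1346, 2183, 1826 and 1796 CPM in fat-1 PF mice. In WT EtOH mice it stood at 914, 1120 and 906 CPM and in fat-1 EtOH mice at 939.9, 1186, 574, 572 and 830.3 CPM. Within each genotype every EtOH mouse was below every PF mouse, although the lowest PF mouse (1170 CPM, WT) and the highest EtOH mouse (1186 CPM, fat-1) of different genotypes overlapped. The log2 fold change in fat-1 mice was -1.12 ± 0.21 (SE, adjusted p = 0.00151), a 2.18-fold lower level. The exact permutation p (two-sided, on log2 of CPM + 0.5) was 0.0159, the smallest that 5 against 4 mice allow, and it was 0.212 after adjustment over 40 such tests (10 members in 4 comparisons). In WT mice the change was -0.55 ± 0.25, which was not called (adjusted p = 0.338, exact permutation p = 0.0571, the smallest that 3 against 4 mice allow). Averaged over the genotypes it was -0.83 ± 0.16 (adjusted p = 0.00189). The difference between the genotypes, the interaction, was -0.58 ± 0.32 and was not called (adjusted p = 0.605). Ces2e was called in the fat-1 comparison under each of 26 alternative settings and in the averaged one under each of 25. Groups did not overlap in CPM for 24% of all genes in the fat-1 comparison and for 24.3% in the WT comparison.

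Genes of the proximal small intestine were also called lower with EtOH, most of them in fat-1 mice (the plot against region genes). Of the 9 genes of that list, 8 were called lower with EtOH in fat-1 mice, beside 18.8% of all genes, and 8 without the 3 EtOH mice, where 29.7% of all genes were called in either direction. In WT mice 2 were called lower, Gata4 and Lct, beside 0.0796% of all genes called. Their summed level was 2317 to 16854 CPM in WT PF, 12051 to 60273 in fat-1 PF mice, and with EtOH 573 to 664 (WT) and 55 to 743 (fat-1). The part of this in the Ces2e difference was not tested. Over 8 genes of the epithelium, the summed level was 16627 to 18949 CPM in WT PF, 13819 to 19113 in fat-1 PF mice, and with EtOH 15939 to 16425 (WT) and 10433 to 17929 (fat-1). The lowest 2 of these values were those of the 2 fat-1 EtOH mice with the lowest Ces2e. The 8 genes did not move together. In the fat-1 comparison Krt19 and Krt18 were called higher and Vil1 and Krt20 lower, beside 18.7% and 18.8% of all genes. The median log2 fold change of the 8 was -0.09, against 0.05 over all genes. Without the 3 EtOH mice 1 was called higher and 1 lower, and without the 2 fat-1 PF mice 0 were called. The 7 smooth muscle genes were all called higher in the fat-1 comparison, beside 18.7% of all genes. In WT mice 0 of the 7 were called, beside 0.0796% of all genes. Without the 3 EtOH mice, 3 of the 7 were called higher in WT mice, beside 26 of 13778 genes called in either direction. The smooth muscle sums were 943 to 1489 CPM in PF and 1937 to 4146 in EtOH mice.

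Ces2g, another member of the second cluster, had the largest fall in fat-1 mice among the 9 members tested. Fat-1 PF mice had 21.8, 94.6, 8.06 and 72.7 CPM, and fat-1 EtOH mice had 4.18, 4.85, 7.05, 7.23 and 8.04 CPM. The groups did not overlap, as was so for 24% of all genes, but the margin between 8.06 and 8.04 CPM is small. WT PF mice had 14.1, 9.05, 6.78 and 5.92 CPM and WT EtOH mice 6.36, 8.82 and 5.29 CPM, which overlap. The log2 fold change with EtOH in fat-1 mice was -2.97 ± 0.54 (adjusted p = 0.00118). Its exact permutation p was 0.0159, the smallest that 5 against 4 mice allow, and 0.212 after adjustment over 40 tests. Averaged over the genotypes the change was -1.68 ± 0.41 (adjusted p = 0.00708). In WT mice it was -0.40 ± 0.62 (adjusted p = 0.811). The interaction was -2.57 ± 0.81, with an unadjusted p of 0.00633 and an adjusted p of 0.595 in edgeR's test. The values of 94.6 and 72.7 CPM are those of the 2 fat-1 PF mice with the lowest Fabp6. Without these mice the change in fat-1 mice was -1.26 ± 0.39 (adjusted p = 0.0496) and the interaction was -0.87 ± 0.55. Ces2g was called in the fat-1 comparison under each of 26 alternative settings, from -3.32 to -1.26.

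**Figure D4:**
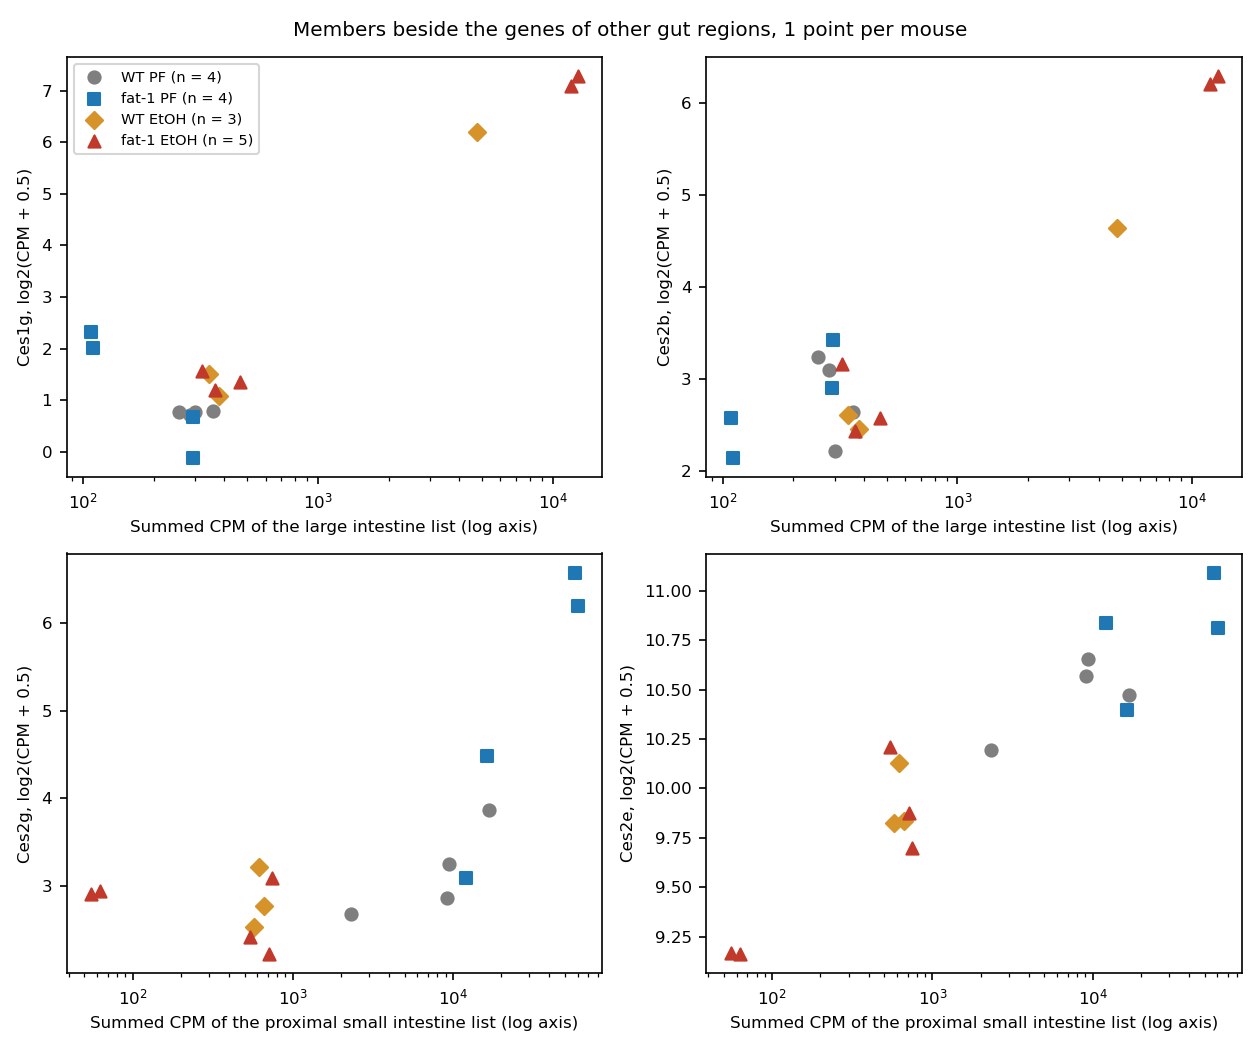
Each point is a mouse. The upper panels plot Ces1g and Ces2b, and the lower panels Ces2g and Ces2e, as log2(CPM + 0.5) against the summed CPM of 11 large intestine genes (upper) or 9 proximal small intestine genes (lower) on a log axis. The 3 mice at 4770 CPM and above for large intestine genes hold the highest Ces1g and Ces2b, and the 2 mice at 57426 and 60273 CPM for proximal genes hold the highest Ces2g.

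Ces2b was called higher in fat-1 EtOH mice, where 2 of the 5 mice were high. It encodes a further Ces2 hydrolase, the closest in coding sequence to Ces2c. Fat-1 EtOH mice had 4.94, 8.5, 73.4, 78.1 and 5.47 CPM, against 7, 5.47, 10.3 and 3.93 CPM in fat-1 PF mice. WT PF mice had 4.15, 5.77, 9 and 8.11 CPM and WT EtOH mice 5.01, 24.5 and 5.63 CPM. The 3 values above 24 CPM belong to the 3 mice with high large intestine genes, and the other 5 EtOH mice lay within the range of the PF mice. The fat-1 comparison gave 2.36 ± 0.86 (adjusted p = 0.0446), with an exact permutation p of 0.302, and the WT comparison gave 0.78 ± 0.93 (adjusted p = 0.744). Ces2b was called in 9 of 26 alternative settings and in 5 of the 16 that left out 1 mouse each. Without the 2 fat-1 PF mice it was not called (1.98, adjusted p = 0.246).

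Ces2c and Ces2a, the next most abundant members, hydrolyse drug esters and acylglycerols. Ces2c stood at 250.0, 288, 332 and 248 CPM in WT PF, 353, 495, 271 and 400.1 CPM in fat-1 PF mice. With EtOH it stood at 229, 348 and 207 CPM (WT) and at 214, 255, 434, 435 and 206 CPM (fat-1). The values of 434, 435 and 348 CPM were again those of the 3 mice with high large intestine genes. With these mice the log2 fold change with EtOH in fat-1 mice was -0.30 ± 0.25 (adjusted p = 0.366), and without them Ces2c was called lower (-0.72 ± 0.18, adjusted p = 0.0111). Without the 2 fat-1 PF mice it was -0.02 ± 0.31 and not called. Ces2a stood at 119, 170.0, 243 and 228 CPM in WT PF, 130.4, 372, 348 and 146 CPM in fat-1 PF mice. With EtOH it stood at 163, 251 and 171 CPM (WT) and at 149, 162, 204, 185 and 115 CPM (fat-1). Its groups overlapped in each comparison of 2 groups. The change in fat-1 mice was -0.61 ± 0.31 (adjusted p = 0.137). Ces2a was called there in 1 of 26 alternative settings, the fit without fat-1 PF replicate 1 (adjusted p = 0.0471).

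**Figure D5:**
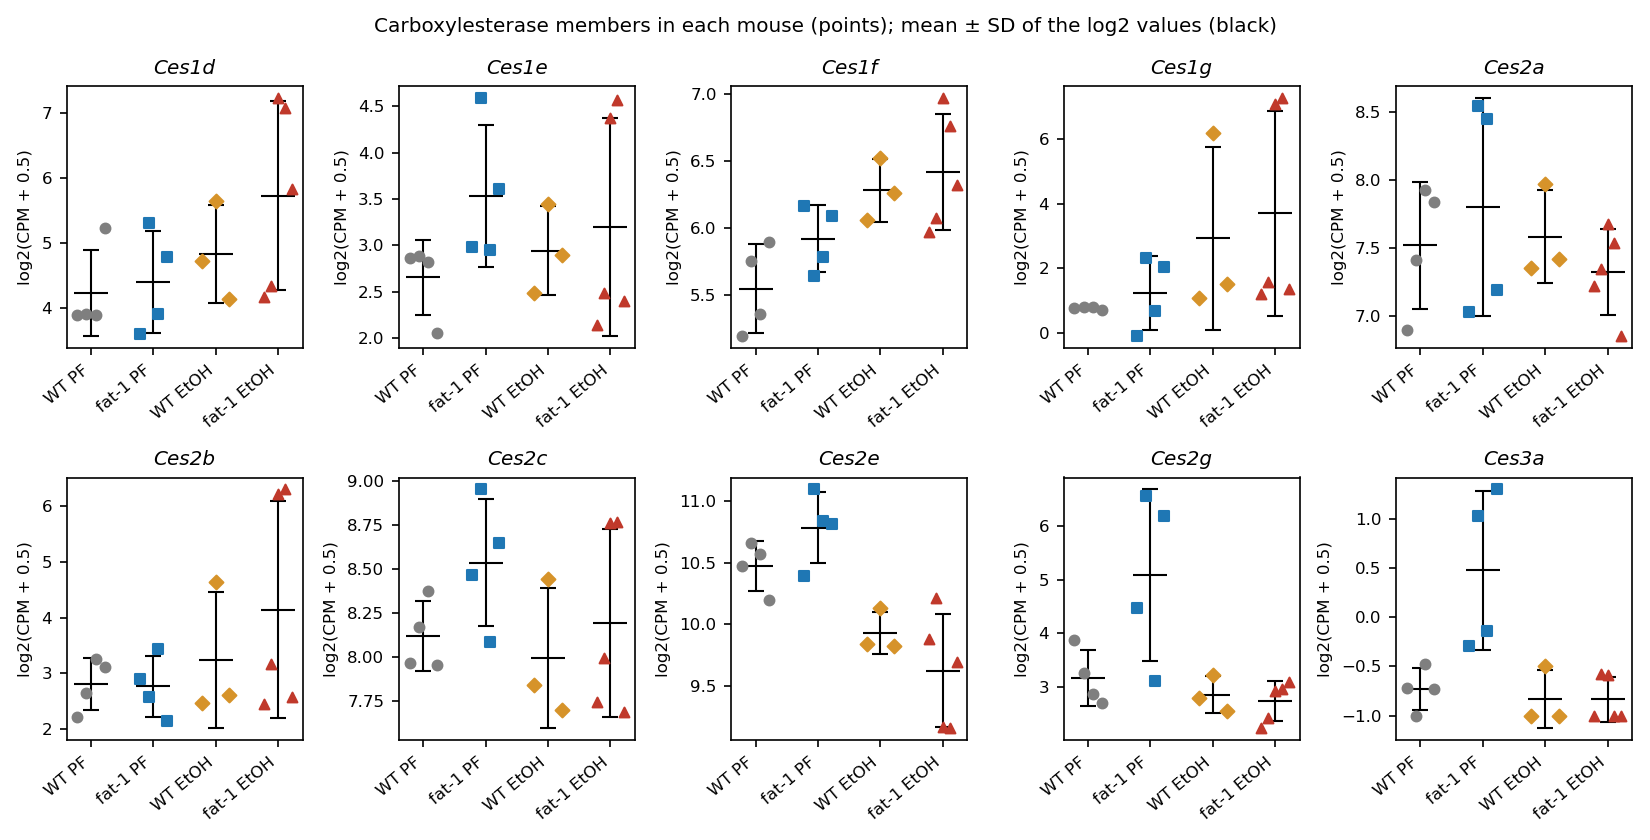
Each panel shows 1 member as log2(CPM + 0.5) in the 4 groups. Points are mice and black bars the mean ± SD of the log2 values. Ces2e is lower in EtOH than in PF mice of each genotype, Ces2g is highest in 2 fat-1 PF mice, and Ces1g is high in 1 WT EtOH and 2 fat-1 EtOH mice.

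Ces1g, which takes part in lipid handling in liver and intestine, spanned 0.424 to 155 CPM over the 16 mice. WT PF mice had 1.2, 1.24, 1.22 and 1.14 CPM, from 11 reads each. Fat-1 PF mice had 0.424, 4.49, 1.09 and 3.56 CPM. WT EtOH mice had 1.61, 72.5 and 2.35 CPM and fat-1 EtOH mice 1.81, 2.47, 136, 155 and 2.05 CPM. The 3 high values, from 691, 1659 and 1737 reads, are those of the 3 mice with high large intestine genes. The other EtOH mice, from 1.61 to 2.47 CPM, lay above all WT PF mice and within the range of the fat-1 PF mice. The log2 fold change was 4.66 ± 1.63 in fat-1 mice (adjusted p = 0.0363, exact permutation p = 0.254), 4.38 ± 1.77 in WT mice (adjusted p = 0.293, exact permutation p = 0.0571) and 4.52 ± 1.20 averaged over the genotypes (adjusted p = 0.0102). Without the 3 mice it was -0.12 ± 0.53 in fat-1 mice, 0.72 ± 0.61 in WT mice and 0.30 ± 0.40 in the average, and it was not called. The fat-1 call was made in 10 of the 16 leave-one-out fits and was lost without either of the 2 high fat-1 EtOH mice or without any 1 of the 4 fat-1 PF mice. Without fat-1 PF replicates 2 and 4 together it was 6.32 (adjusted p = 0.123). The averaged call was lost without replicate 2 of the WT EtOH mice (2.68, adjusted p = 0.0916). The 3 mice were set apart by their large intestine genes, so that no count of calls over that list is given. Car1 had 4041 CPM in replicate 2 of the WT EtOH mice and 11157 and 12208 CPM in fat-1 EtOH replicates 3 and 4, against at most 79.1 CPM in the other 13. Its part in the Ces1g and Ces2b values was not tested beyond leaving out these mice.

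Ces1f, a hydrolase best known from liver, was called higher with EtOH in the average over the genotypes. It stood at 36, 53.3, 40.4 and 59 CPM in WT PF and at 66.1, 91.5 and 76.2 CPM in WT EtOH mice, which did not overlap, as was so for 24.3% of all genes. In fat-1 mice it stood at 71.3, 49.4, 54.5 and 67.7 CPM with PF and at 62.3, 66.9, 125, 108 and 79.5 CPM with EtOH, which overlapped. The values of 91.5, 125 and 108 CPM were those of the 3 mice with high large intestine genes. The averaged log2 fold change was 0.63 ± 0.16 (adjusted p = 0.00844), and it was 0.40 ± 0.13 without the 3 mice. It was called in 25 of 25 alternative settings. Within WT mice it was 0.72 ± 0.24 (adjusted p = 0.221, exact permutation p = 0.0571) and within fat-1 mice 0.54 ± 0.21 (adjusted p = 0.0609), neither of which was called. Without the 3 mice these changes were 0.59 ± 0.20 in WT (adjusted p = 0.142) and 0.22 ± 0.18 in fat-1 mice (adjusted p = 0.366). In fat-1 mice Ces1f was called in 5 of 26 alternative settings, DESeq2 among them.

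Ces1d, the triacylglycerol hydrolase of liver and adipose tissue, was not called in any comparison of the main fit. It was called in 7 of 26 alternative settings for EtOH against PF in fat-1 mice, DESeq2 among them, and in 4 of 25 for the average over the genotypes. It stood at 14.3, 14.5, 14.3 and 36.8 CPM in WT PF, 11.6, 39, 14.5 and 26.9 CPM in fat-1 PF mice. With EtOH it stood at 25.9, 49.2 and 17.1 CPM (WT) and at 17.4, 19.6, 149, 134 and 55.9 CPM (fat-1). The highest mouse of each EtOH group was again one of the 3 with high large intestine genes. The fat-1 comparison gave 1.71 ± 0.65 (adjusted p = 0.0524), 0.47 ± 0.53 without the 3 EtOH mice and 2.53 ± 0.91 (adjusted p = 0.0779) without the 2 fat-1 PF mice. Ces1d is also a gene of fat cells. Over 8 adipocyte genes the summed level was 246 to 672 CPM in WT PF, 253 to 484 in fat-1 PF mice, with EtOH 208 to 634 (WT) and 245 to 1154 (fat-1), and none of the 8 was at 0 in any mouse. The highest sums in WT PF and fat-1 EtOH mice were those of WT PF replicate 4 (672 CPM) and fat-1 EtOH replicate 5 (1154 CPM), which had 36.8 and 55.9 CPM of Ces1d. The 2 mice with the most Ces1d, fat-1 EtOH replicates 3 and 4 (149 and 134 CPM), had sums of 435 and 399.7 CPM. In WT EtOH mice the highest sum was that of replicate 1 (634 CPM), with 25.9 CPM of Ces1d, while replicate 2 had a sum of 441 CPM and 49.2 CPM of Ces1d. Of these 8 genes, 0 were called higher and Cidec was called lower in the fat-1 comparison, beside 18.7% and 18.8% of all genes. Their median log2 fold change there was 1.13, against 0.05 over all genes. Averaged over the genotypes Retn was called higher and 0 lower, beside 18.3% and 17.6% of all genes. Without the 3 EtOH mice, or without the 2 fat-1 PF mice, 0 of the 8 were called in either comparison. The fat-1 medians were then 1.22 and 1.39. The part of these adipocyte genes in the Ces1d values was not tested.

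Ces1e, known as egasyn, holds beta-glucuronidase (Gusb) in the endoplasmic reticulum. It stood at 6.78, 6.9, 6.55 and 3.64 CPM in WT PF and 7.42, 23.6, 7.24 and 11.7 CPM in fat-1 PF mice, which did not overlap, as was so for 6.87% of all genes. The difference of 1.06 ± 0.59 was not called (adjusted p = 0.481), and the exact permutation p was 0.0286, the smallest that 4 against 4 mice allow, and 0.229 after adjustment over 40 tests. The values of 23.6 and 11.7 CPM are those of the 2 fat-1 PF mice with high proximal genes, and without them the difference was 0.29 ± 0.68. WT EtOH mice had 5.1, 10.4 and 6.97 CPM and fat-1 EtOH mice 3.9, 5.1, 20.3, 23.2 and 4.79 CPM. The fat-1 diet comparison gave -0.12 ± 0.54 with all mice, -1.40 ± 0.38 (adjusted p = 0.0181) without the 3 EtOH mice and, with the direction turned, 0.64 ± 0.67 (adjusted p = 0.503) without the 2 fat-1 PF mice. Ces1e was called in 1 of 26 alternative settings. Gusb stood at 29.5 ± 2.48 CPM (SD, n = 4) in WT PF, 39.7 ± 11.3 (n = 4) in fat-1 PF mice, and with EtOH at 31.3 ± 1.99 (WT, n = 3) and 31.1 ± 5.88 (fat-1, n = 5). It was not called with EtOH in fat-1 mice (-0.36 ± 0.17, adjusted p = 0.102).

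Ces3a, a hydrolase linked to lipid droplets of the liver, was at the limit of detection. Its read counts were 1, 0, 2 and 1 in WT PF, 3, 11, 3 and 16 in fat-1 PF mice, and with EtOH 0, 2 and 0 (WT) and 0, 2, 2, 0 and 0 (fat-1). The 2 counts above 3 belong to the 2 fat-1 PF mice with high proximal genes, in which Ces3b, with 15.1% of Ces3a's windows in common, had 0.561 and 0.491 CPM. A level of 3 reads corresponds to at most 0.421 CPM, so that a difference among the other 14 mice was not detectable at this depth. Fat-1 PF mice did not overlap with WT PF or fat-1 EtOH mice, but only by 3 reads against 2. Groups did not overlap for 6.87% and 24% of all genes tested in these comparisons. The exact permutation p-values, 0.0286 and 0.0159, were the smallest that these group sizes allow. Adjusted over 40 tests they were 0.229 and 0.212, and no fold is given.

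Between the genotypes on the PF diet, fat-1 against WT, 0 of 9 members were called, beside 0% of all genes. Of the 9, 8 were higher in fat-1 mice, with a median log2 fold change of 0.39, against 0.02 over all genes, and 1 of the 9, Ces2g, had an unadjusted p under 0.05 (0.000713), as did 12.7% of all genes. Ces2g gave 2.46 ± 0.57 (adjusted p = 0.187) and 0.74 ± 0.41 (adjusted p = 1) without the 2 fat-1 PF mice with high proximal genes. DESeq2 called Ces2g and no other member, beside 1.06% of all genes. Between the genotypes on the EtOH diet 0 members were called beside 0.00724% of all genes, and 0 had an unadjusted p under 0.05, beside 4.86%. The largest differences were those of Ces2b (1.55 ± 0.91), Ces1d (1.29 ± 0.71) and Ces1g (1.23 ± 1.44). With the 3 EtOH mice left out these were 0.25 ± 0.40, 0.52 ± 0.64 and 0.09 ± 0.62. The groups overlapped for all 9 members tested, while they did not for 2.45% of genes. In the interaction 0 members were called, beside 0% of all genes, and 1 of the 9, Ces2g, had an unadjusted p under 0.05, as did 8.26% of all genes. DESeq2 and voom also called 0 members in these last 2 comparisons.

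Of the 9 other carboxylesterase genes, 2 passed the filter. Ces2h gave -1.88 ± 0.59 (adjusted p = 0.0218) with EtOH in fat-1 mice. It had 10 or more reads in 5 mice, 3 of which were fat-1 PF mice, so that it passed the filter mainly through the group in which it was high, and nothing is read from its call. It stood at 1.17, 2.11, 0.273 and 2.58 CPM in fat-1 PF and 0.95, 0.51, 0.164, 0.178 and 0.257 CPM in fat-1 EtOH mice, which overlapped, and it was not called without the 3 EtOH mice or without the 2 fat-1 PF mice. Ces1c was not called (-0.46 ± 0.80, adjusted p = 0.67). In fat-1 EtOH mice it had 5.13, 5.27, 0.082, 0.357 and 1.8 CPM, and in fat-1 PF mice 5.62, 0.561, 5.88 and 1.72 CPM. Ces1b and Ces2f stayed at or below 0.672 and 0.874 CPM. Ces3b, Ces1h and Ces5a had at most 0.561, 0.137 and 0.082 CPM, and Ces1a and Ces4a had 0 reads in every library.

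Genes that act beside the carboxylesterases are given by lists, for EtOH against PF in fat-1 mice, as log2 fold changes ± SE. Counts with all mice stand against the 18.7% of all genes called higher and 18.8% called lower in this comparison. Counts without the 3 EtOH mice stand against 29.7% of all genes called in either direction, and those without the 2 fat-1 PF mice against 13.9%. Of 20 other lipid and ester hydrolases tested, 2 were called higher and 7 lower, with a median log2 fold change of -0.22, against 0.05 over all genes. Plb1, the brush border phospholipase, fell by 6.87 ± 1.49 (adjusted p = 0.00334), from 0.614 to 911 CPM with PF to 0.164 to 5.7 CPM with EtOH, which overlap. Aadac, an arylacetamide deacetylase of the endoplasmic reticulum, fell by 3.05 ± 0.60 (adjusted p = 0.0019). Mgll, the monoglyceride lipase, rose by 2.21 ± 0.58 (adjusted p = 0.00908), from 26.2 to 32.9 CPM with PF to 35.3 to 269.5 CPM with EtOH. Lpl, lipoprotein lipase, was at 1.27 and not called (adjusted p = 0.0956). Without the 3 EtOH mice 0 hydrolases were called higher and 7 lower, and without the 2 fat-1 PF mice 0 were called higher and 2 of 21 lower.

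Of 19 genes of triglyceride resynthesis and chylomicron assembly, 1 was called higher and 13 lower, with a median of -1.29. Fabp1, a fatty acid binding protein, fell by 8.60 ± 1.01 (adjusted p = 0.00022), from 766 to 7520 CPM with PF to 7.4 to 15.7 CPM with EtOH. Apoa4, an apolipoprotein of chylomicrons, fell by 6.81 ± 1.10 (adjusted p = 0.000636). Both are also in the list of proximal small intestine genes. Gpat4, an acyltransferase, rose by 0.65 ± 0.12 (adjusted p = 0.00143), and Acsl3 was at 1.14 and not called (adjusted p = 0.138). Without the 3 EtOH mice the counts were 1 higher and 13 lower, and without the 2 fat-1 PF mice 1 higher and 7 lower, beside 13.9% of all genes called in that fit.

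Of 14 nuclear receptors and related regulators, 1 was called higher and 4 lower, with a median of -0.27, a share close to that over all genes (37.4%). Nr1i3, the xenobiotic receptor CAR, fell by 5.86 ± 0.71 (adjusted p = 0.000247), from 36.1 to 183 CPM with PF to 0.41 to 3.23 CPM with EtOH. Nr1h4, the bile acid receptor FXR, rose by 1.16 ± 0.44 (adjusted p = 0.0496). Pparg (1.13, adjusted p = 0.188) and Nr0b2 (-1.50, adjusted p = 0.144) were not called. Of 22 other genes of drug metabolism tested, 3 were called higher and 11 lower, with a median of -1.27. Cyp2b10, a cytochrome that CAR is known to induce, fell by 8.29 ± 0.78 (adjusted p = 0.000157), from 94.2 to 308 CPM with PF to 0.178 to 1.62 CPM with EtOH. Ugt2a3, a glucuronosyltransferase, fell by 7.80 ± 0.78 (adjusted p = 0.000165). In WT mice Cyp2b10 fell by 5.37 (adjusted p = 0.0388) and Ugt2a3 fell by 6.45 (adjusted p = 0.0282), the only calls of these 5 lists there. Without WT EtOH replicate 2 and the other 2 EtOH mice with high large intestine genes, the WT values were -5.68 ± 1.15 for Cyp2b10 (adjusted p = 0.0595) and -6.60 ± 1.13 for Ugt2a3 (adjusted p = 0.0506), as large as before but not called with 2 WT EtOH mice left. Cyp2c55 rose by 4.86 ± 1.53 (adjusted p = 0.0232), with 1615 and 1693 CPM in fat-1 EtOH replicates 3 and 4, 24.3 to 93.1 CPM in the other 3 and 6.26 to 57 CPM with PF. It was 1.05 ± 0.68 and not called without the 3 EtOH mice. Cyp2d34, one of the 3 counted as higher, passed the filter through the EtOH mice in which it was high, so that nothing is read from its call. In fat-1 mice it had 0 to 0.273 CPM on the PF diet (at most 3 reads a mouse) and 0.19 to 177 CPM on the EtOH diet. Without the 3 EtOH mice 0 nuclear receptors were called higher and 5 lower, and 2 genes of drug metabolism were called higher and 15 lower. Without the 2 fat-1 PF mice 0 nuclear receptors were called higher and 2 lower, and 1 gene of drug metabolism was called higher and 7 lower, with a median of -0.51.

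Of 4 genes of retention in the endoplasmic reticulum, 3 were called lower and Gusb was not. The KDEL receptors, which return proteins to this compartment, fell by 0.90 ± 0.14 (Kdelr1, adjusted p = 0.000511), 0.86 ± 0.11 (Kdelr2, adjusted p = 0.000254) and 1.37 ± 0.39 (Kdelr3, adjusted p = 0.0152). With the 3 EtOH mice left out 3 of the 4 were called lower, and without the 2 fat-1 PF mice 2 were.

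The genes whose log2 CPM was most like that of each member over the 16 libraries are given as a description, since the points share their libraries and groups. For Ces2e they were Pgrmc1 and Sap30l, with a Pearson r of 0.99 each, for Ces2g Tbc1d5 and Ros1 (0.96 each), for Ces2c Akr1c12 (0.97) and Akr1c13 (0.95), for Ces2b Sdcbp2 and Prelid2 (0.96 each) and for Ces2a Ramac (0.82) and Emc7 (0.80). For Ces1g they were Sycn (0.97) and Selenbp1 (0.96), for Ces1e Ugdh (0.96) and Vwa8 (0.94), for Ces1d Sfxn5 (0.95) and Itga7 (0.94) and for Ces1f Galc (0.90) and Dnajc1 (0.89). The number of genes with an r over 0.9 was 599 for Ces2e and 0 for Ces2a and Ces1f.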

How the data were processed

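The authors made stranded poly(A) RNA-seq libraries, aligned the reads to mm10 with tophat2 and counted reads per Ensembl gene with htseq. The deposited values used here are these raw counts. The version and settings of the counting are not given in the sources used here. The columns were matched to the 16 mice by name, and 0 columns belonged to no sample. Symbols and positions came from GENCODE M21 (GRCm38).

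Counts were scaled by TMM, genes were kept by filterByExpr, and edgeR 4.0.16 (R 4.3.3) fitted 1 mean per group over all 16 mice, with the quasi-likelihood test and Benjamini-Hochberg adjustment over all 13811 genes at 0.05. This replaced the authors' own test, cuffdiff2, which needs the aligned reads. CPM are counts per 1e6 reads of the TMM-adjusted library size. The fit was tested on simulated counts. Exact two-sided permutation tests used log2(CPM + 0.5), in SciPy 1.17.1, with a pseudocount of 0.1 as the alternative. Other alternatives were DESeq2 1.42.0, voom with sample weights (limma 3.58.1), other size factors, 2 filters, the compared groups only, a block on the replicate number, each mouse left out, and fits without 3 EtOH mice or, chosen after seeing the data, without 2 fat-1 PF mice.

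All members and the other carboxylesterase genes are named. Of each list of genes that act beside the carboxylesterases, genes called in any comparison are named or, where there were more than 4, the 2 largest rises and the 2 largest falls. Of the marker lists of cell types and gut regions, only some of the called genes are named. For each member tested the 2 genes most like it are named. Members and lists were chosen with earlier results of these data known. No 2 libraries of a group agreed within sampling noise (the lowest chi-square per gene was 7.23, where 1 is sampling noise alone). Where the sources name no separate litters or days, p-values measure the spread between these mice.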

Additional observations from a re-analysis of the deposited data

Results flagged for a closer look

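Ces1d in replicate 4 of the WT PF mice, at 36.8 CPM, lay far above the other 3 mice of its group (14.3, 14.5 and 14.3 CPM). Ces1e in the same mouse, at 3.64 CPM, lay far below the others (6.55 to 6.9 CPM). These are 2 of 30 groups of 4 or 5 mice examined for a single distant value, and chance flags about 1 in 20 groups. The adipocyte genes summed to 672 CPM in this mouse and to 246 to 323 CPM in the other WT PF mice, and the proximal small intestine genes to 2317 against 9137 to 16854 CPM. Whether these moved Ces1d or Ces1e was not tested.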

How the results depend on the processing

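For EtOH against PF in fat-1 mice, where 4 members were called, 2 were called with voom, 2 with only the compared groups in the fit and 2 without the 2 fat-1 PF mice with high proximal genes. Each time they were Ces2e and Ces2g. DESeq2 and upper quartile scaling each called 6, adding Ces1d and Ces1f to the 4. With 1 mouse left out at a time the number ranged from 2 to 6. Without the 3 EtOH mice with high large intestine genes the log2 fold changes of Ces1g and Ces2b turned to -0.12 and -0.05. For EtOH against PF in WT mice, with 0 members called, voom called 2 and the fit of only these groups called 2, Ces1f and Ces2e. Between the genotypes on the PF diet, with 0 called, DESeq2 called 1 (Ces2g), and with 1 mouse left out at a time the number ranged from 0 to 1, where the 1 call was Ces2g without fat-1 PF replicate 3 (adjusted p = 0.0247). Averaged over the genotypes the number stayed between 3 and 6 in every alternative, and it was 0 in every alternative between the genotypes on the EtOH diet and for the interaction. Over all genes, where edgeR called 0 between the genotypes on the PF diet, DESeq2 called 147 and voom 31. Between the diets in WT mice, where edgeR called 11, DESeq2 called 245, the fit of only these groups 1103 (8.32%) and voom 2800 (20.3%), and in fat-1 mice, where edgeR called 5170, they called 5556, 3086 and 3649. Of 1380 values of single members under the alternatives, 1269 kept their direction and side of the threshold or moved by less than the spread, 32 passed it newly, 29 no longer passed it, 48 moved and 2 reversed. With the smaller pseudocount 1 of 40 permutation p-values changed side of 0.05. Scaling by the upper quartile moved the median of all genes in the fat-1 comparison from 0.05 to 0.20.

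Mice of the same replicate number did not deviate together (mean correlation -0.0225 over 21 pairs, against 0.00703 over 74 pairs of other numbers). This gave no sign that the numbers pair the mice. It cannot exclude a pairing, because a few mice differed strongly from the rest of their groups. With the replicate block 3 members were called in the fat-1 comparison (Ces1g, Ces2e and Ces2g), beside 4748 of 13811 genes. The groups of 3 to 5 mice and levels near 3 reads limit what could be seen for Ces3a, and Ces1g has no value under the filter of 10 counts in every mouse.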
